A study of Mus musculus with 10 samples.

Results

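Glucose uptake and glycolysis were followed through 9 named genes of the mouse heart, a list drawn up with earlier results of these data known. They were the glucose transporters Slc2a1 and Slc2a4, the hexokinases Hk1 and Hk2, the phosphofructokinase Pfkm with its regulators Pfkfb1 and Pfkfb2, and the phosphoglycerate mutases Pgam1 and Pgam2. The count tables listed 56748 genes, of which 15454 held enough counts to be tested, and all 9 were among these. Whole hearts, atria included, were taken from 5 wild-type mice after forced treadmill training and from 5 sedentary wild-type mice, with 1 RNA sequencing library per heart. Both groups were male C57BL/6 mice, bought at 8 weeks old and rested before the protocol started. The labels name no allele or agent beyond wild type and exercise. The paper describes a PET/CT scan of each animal of both groups, with injected FDG and under isoflurane, before the hearts were harvested. The trained mice ran at 15 m/min for 120 min a day on 5 days a week over 8 weeks, after a week of acclimatization. The comparison asks whether training of this length shifts the expression of these genes in the heart. Libraries held between 29461697 and 35945417 counts in the training hearts and between 35196993 and 39431030 in the sedentary hearts, so the training libraries were shallower (two-sided exact permutation test on the totals, p = 0.0238).

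The heart burns mainly fatty acids at rest and takes up more glucose under load or insulin. Glucose enters the cardiomyocyte through GLUT1, made from Slc2a1, and through the insulin- and contraction-responsive GLUT4, made from Slc2a4. A hexokinase then traps it as glucose 6-phosphate, phosphofructokinase commits it to glycolysis, and phosphoglycerate mutase acts near the end of the pathway. Hk1 and Pgam1 are the widely expressed forms of their steps, while Hk2 and Pgam2 are the forms typical of muscle.

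Hk2 and Pgam2 were lower in the training hearts and the other 7 genes did not pass the test. Pgam2 fell by 12.6%, with no overlap between the groups in counts scaled to library size (CPM), though they overlapped in TPM, described below. Hk2 fell by 19.6%, with 1 sedentary heart below every training heart. All 8 markers of the atria had log2 fold changes above 0, and 2 were called higher. With the score of these markers as a covariate, Hk2 and Pgam2 were no longer called. Their log2 fold changes were then −0.10 for Hk2 (edgeR, adjusted p = 0.750) and −0.15 for Pgam2 (edgeR, adjusted p = 0.337). In that fit 86 of all genes were called, against 1084 without the score. Calls were made at a false discovery rate (FDR) below 0.1 over all tested genes, with p-values from the quasi-likelihood test of edgeR, adjusted after Benjamini-Hochberg. By this rule 2 of the 9 genes were lower and 0 were higher, where 4.26% of all tested genes were lower, 2.75% were higher and 7.01% were called in either direction. In CPM the groups did not overlap for 1 of the 9 genes, Pgam2, and for 5.06% of all tested genes. The median log2 fold change of the 9 genes was −0.018, with 6 below 0 and 3 above, and that of all tested genes was 0.00026. In whole-heart RNA, fewer cells of a type and less RNA per cell cannot be told apart.

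The 250 bases before the start of the canonical transcript of GENCODE M39 are shown for the 2 genes that were lower, from GRCm39, each 5′ to 3′ on the strand of its gene. Capitals mark GC boxes in Hk2 and the MEF2 consensus in Pgam2. The Hk2 window is chr6:82751453-82751702 and the Pgam2 window is chr11:5753760-5754009, both on the minus strand. Another transcript of each gene starts slightly upstream, so the end of each window lies inside the gene's full span.
Hk2: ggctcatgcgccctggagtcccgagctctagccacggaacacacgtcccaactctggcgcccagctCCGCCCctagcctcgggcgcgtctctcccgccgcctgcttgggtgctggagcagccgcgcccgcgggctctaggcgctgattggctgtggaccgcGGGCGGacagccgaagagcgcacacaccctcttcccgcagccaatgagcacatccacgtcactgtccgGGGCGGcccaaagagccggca
Pgam2: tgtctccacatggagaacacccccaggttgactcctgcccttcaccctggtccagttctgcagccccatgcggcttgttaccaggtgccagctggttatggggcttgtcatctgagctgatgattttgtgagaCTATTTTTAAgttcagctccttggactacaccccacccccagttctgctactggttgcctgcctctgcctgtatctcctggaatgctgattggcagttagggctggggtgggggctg
Both strands of each window were searched for the E-box CACGTG, the GC box GGGCGG and a MEF2 pattern of CTA, any 4 bases and TAG. The MEF2 consensus was added after these 3 searches had been run and the windows had been seen, because the first pattern found nothing in Pgam2. In the Hk2 window the GC box occurred 3 times, ending 179, 84 and 16 bases before the start. At least 1 GC box was in 45.9% of 15378 windows of the same length, and the share with 3 was not counted. The GC box was also in the windows of Slc2a1 and Pgam1, which were not called. In the Pgam2 window none of the first 3 was found, and the MEF2 consensus occurred once, 108 bases before the start, against 2.15% of all windows. The first MEF2 pattern, present in 3.10% of windows, was found only in Slc2a4 among the 9 genes, and the consensus was not found there. The E-box was in none of the 9 windows and in 7.43% of all windows. A match is a run of letters and was not tested as a site.

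Among the transporters, neither gene passed the test. Slc2a4 (ENSMUSG00000018566, chromosome 11, 69831006 to 69839070) was at 391 ± 12.7 CPM (counts scaled to library size; SD, n = 5) in training hearts and 393 ± 15.1 CPM in sedentary hearts. Its log2 fold change was −0.0061, with a 95% confidence interval from −0.093 to 0.081 (edgeR, adjusted p = 0.952). Slc2a1 (ENSMUSG00000028645, chromosome 4, 118965908 to 118996365) was at 17.9 ± 1.45 CPM in training hearts and 16.7 ± 1.44 CPM in sedentary hearts. Its log2 fold change was 0.10 with an interval from −0.049 to 0.25 (edgeR, adjusted p = 0.458), and 4 of 5 training hearts lay above the sedentary mean. Single hearts moved this value, to 0.050 without training heart 3 and to 0.15 without sedentary heart 1. The intervals allow only small changes of Slc2a4 and a somewhat wider range for Slc2a1, which rests on between 527 and 762 counts per heart.

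**Figure D1:**
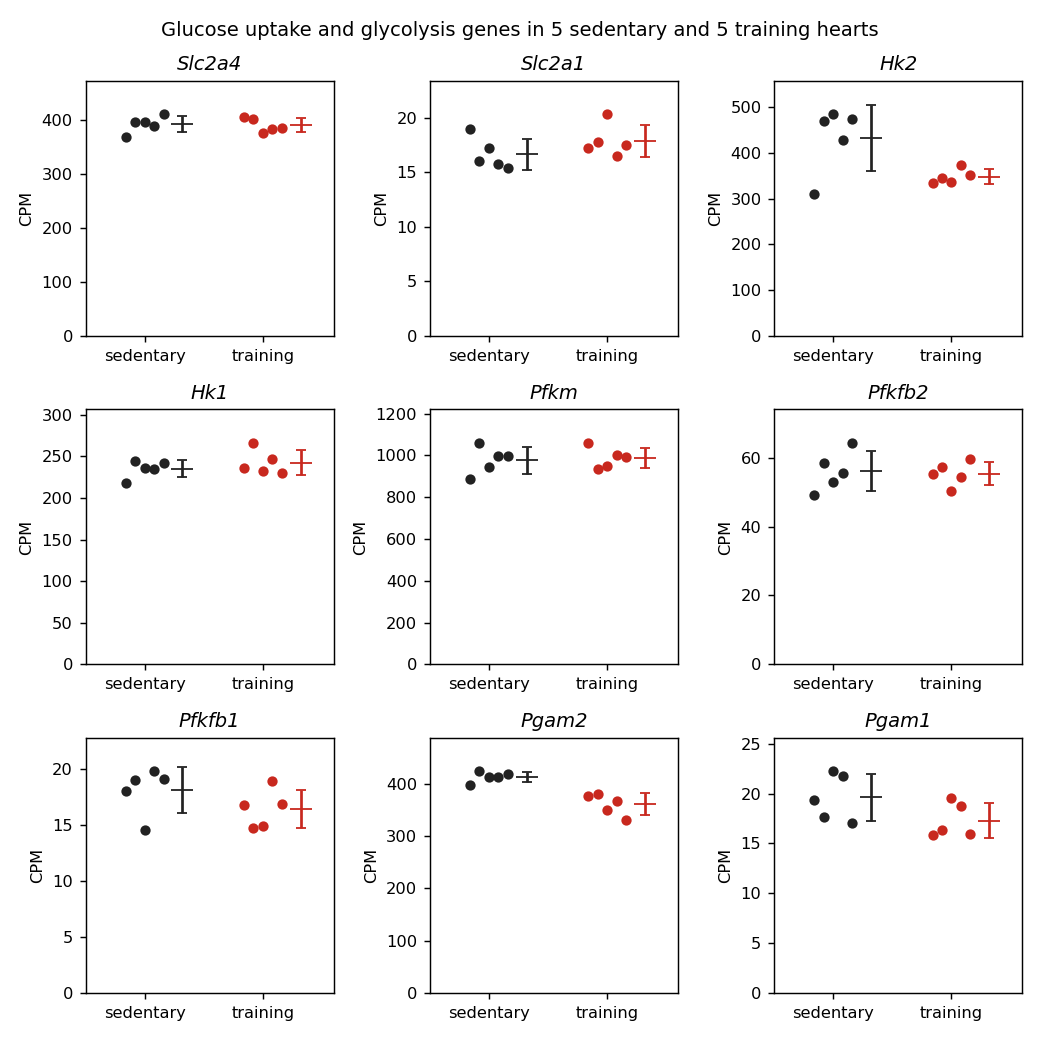
CPM of each of the 9 genes (vertical axes, from 0, 1 scale per gene) in 5 sedentary (black) and 5 training (red) hearts, ordered by heart number within a group, with the mean ± SD beside the points. Pgam2 shows no overlap, and in Hk2 sedentary heart 1, at 309 CPM, lies below all training hearts while the other sedentary hearts lie between 428 and 484 CPM.

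Hk2, the insulin-regulated hexokinase of muscle (ENSMUSG00000000628, chromosome 6, 82699740 to 82751469), was at 333, 345, 335, 374 and 351 CPM in training hearts 1 to 5. In sedentary hearts 1 to 5 it was at 309, 470, 484, 428 and 473 CPM. The training hearts lay close together, with a coefficient of variation of 4.74%, while that of the sedentary hearts was 16.7%, with heart 1 far below the other 4. The group means were 348 ± 16.5 CPM and 433 ± 72.3 CPM (SD, n = 5), and the log2 fold change was −0.32 with an SE of 0.097 and a 95% confidence interval from −0.52 to −0.11 (edgeR, adjusted p = 0.0933). Without sedentary heart 1 the log2 fold change was −0.41 (edgeR, adjusted p = 0.00302), and leaving out any one of the other 9 hearts ended the call, with adjusted p up to 0.208. All 5 training hearts lay below the sedentary mean.

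Hk1, the hexokinase of most tissues (ENSMUSG00000037012, chromosome 10, 62104621 to 62215687), was at 236, 266, 232, 246 and 230.1 CPM in the training hearts and at 218, 244, 236, 235 and 242 CPM in the sedentary hearts. The groups overlapped in part, with training hearts 2 and 4 above every sedentary heart and sedentary heart 1 below every training heart, and with means of 242 ± 14.8 and 235 ± 10.1 CPM. The log2 fold change was 0.044 with an interval from −0.059 to 0.15 (edgeR, adjusted p = 0.665).

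The balance of the hexokinases was taken as the log2 ratio of Hk2 to Hk1 counts within each heart, which does not depend on library size. It was 0.50, 0.37, 0.53, 0.60 and 0.61 in training hearts 1 to 5. In sedentary hearts 1 to 5 it was 0.50, 0.95, 1.04, 0.87 and 0.97, so that sedentary heart 1 stood with the training hearts. The mean was 0.52 ± 0.096 in training and 0.86 ± 0.21 in sedentary hearts, a difference of −0.34. A two-sided exact permutation test, reassigning whole hearts, gave p = 0.0317, and p = 0.127 after Benjamini-Hochberg adjustment over the 4 ratios computed, so the difference did not pass at an adjusted level. The smallest p this design allows is 0.00794.

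**Figure D2:**
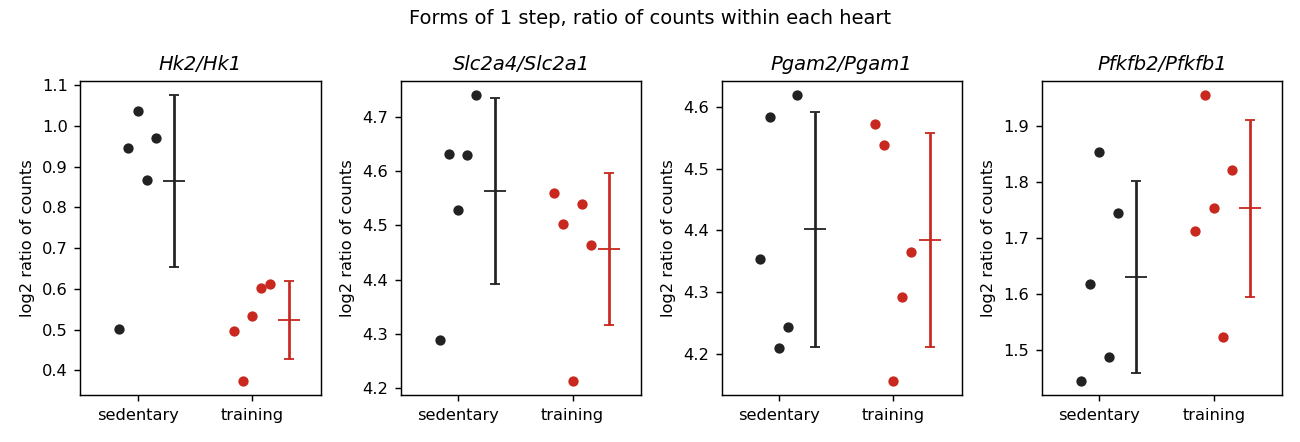
log2 ratio of counts (vertical axes, 1 scale per panel, not starting at 0) of 2 forms of the same step in each heart, with the mean ± SD beside the points, for sedentary (black) and training (red) hearts. The Hk2/Hk1 ratio is between 0.37 and 0.61 in training hearts and above 0.86 in 4 of 5 sedentary hearts, and the other 3 ratios overlap broadly.

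None of the other 3 ratios passed. Slc2a4 to Slc2a1 differed by −0.11 on the log2 scale (exact permutation test, p = 0.317, adjusted p = 0.423), by −0.047 without training heart 3 and by −0.18 without sedentary heart 1. Pgam2 to Pgam1 differed by −0.017 (exact permutation test, p = 0.881), and Pfkfb2 to Pfkfb1 by 0.12 (exact permutation test, p = 0.262, adjusted p = 0.423).

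Pfkm, the muscle subunit of phosphofructokinase (ENSMUSG00000033065, chromosome 15, 97990451 to 98031417), was between 936 and 1059 CPM in training hearts and between 889 and 1060.5 CPM in sedentary hearts. Its log2 fold change was 0.015 with an SE of 0.053 (edgeR, adjusted p = 0.905). Pfkfb1 and Pfkfb2 make and degrade fructose 2,6-bisphosphate, the activator of phosphofructokinase. Pfkfb2, the heart form (ENSMUSG00000026409, chromosome 1, 130616779 to 130656990), was at 55.4 ± 3.45 and 56.1 ± 5.72 CPM, a log2 fold change of −0.018 (edgeR, adjusted p = 0.912). Pfkfb1, the form of liver and skeletal muscle (ENSMUSG00000025271, chromosome X, 149371225 to 149426874), was at 16.5 ± 1.71 and 18.1 ± 2.07 CPM. Its log2 fold change was −0.14 with an interval from −0.33 to 0.047 (edgeR, adjusted p = 0.402). The Pfkfb2 level is uncertain, since 11.0% of its exon bases are shared with Gm29427 on the same strand, and RSEM assigned it 1.64 times the counted reads.

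Pgam2, the muscle phosphoglycerate mutase (ENSMUSG00000020475, chromosome 11, 5751636 to 5753760), was at 377, 380.4, 349, 367 and 329 CPM in training hearts 1 to 5. In sedentary hearts 1 to 5 it was at 397, 423, 412, 413 and 419 CPM, so the lowest sedentary heart lay above the highest training heart. The means were 360.4 ± 21.3 and 413 ± 10.1 CPM (SD, n = 5). The log2 fold change was −0.20 with an SE of 0.045 and an interval from −0.29 to −0.098 (edgeR, adjusted p = 0.0353). The call held without each of the 10 hearts in turn, and was lost with the atrial score as a covariate, where the log2 fold change was −0.15. Dbnl overlaps all of its exon bases on the opposite strand, and the counts used here keep the strands apart.

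Pgam1, the form of most tissues (ENSMUSG00000011752, chromosome 19, 41900341 to 41907104), was between 15.8 and 19.5 CPM in training hearts and between 17.0 and 22.3 CPM in sedentary hearts. Its log2 fold change was −0.18 with an interval from −0.37 to 0.0027, and all 5 training hearts lay below the sedentary mean, but it did not pass (edgeR, adjusted p = 0.255). These values are uncertain. The genome holds 5 other matches of at least 100 bases and 95% identity to its 1798-base transcript, the longest 1734 bases at 99.9% identity, and counts of uniquely mapped reads averaged 655.5 per heart against 3394 expected counts from RSEM, which shares such reads out. No such match was found for 7 of the other genes, and Pfkm had only short ones covering 3.05% of its transcript.

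Per transcript length, in TPM (reads scaled to transcript length and library size) from RSEM, the order over 10 hearts was Pgam2 (535), Pfkm (357), Slc2a4 (168), Hk2 (72.7), Hk1 (70.4), Pgam1 (61.9), Pfkfb2 (34.8), Pfkfb1 (11.5) and Slc2a1 (7.21). Ranges over hearts overlapped for Hk2 and Hk1 and for Hk1 and Pgam1, and for no other neighbours. By TPM, Hk2 was above Hk1 in 4 of 5 sedentary hearts and in 0 of 5 training hearts. The ratio of their counts did not pass its test (exact permutation test, adjusted p = 0.127). Mean TPM of Hk2 was 67.1 ± 4.34 in training and 78.3 ± 12.0 in sedentary hearts, and that of Hk1 was 74.0 ± 4.52 and 66.7 ± 2.62. TPM are scaled otherwise than the CPM, in which Hk1 differed less, at 242 and 235, and was not called. Pgam2 was at 515 ± 21.7 TPM in training and 555 ± 14.7 TPM in sedentary hearts. In TPM its groups overlapped, with training heart 2 at 546 above sedentary heart 4 at 535.

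**Figure D3:**
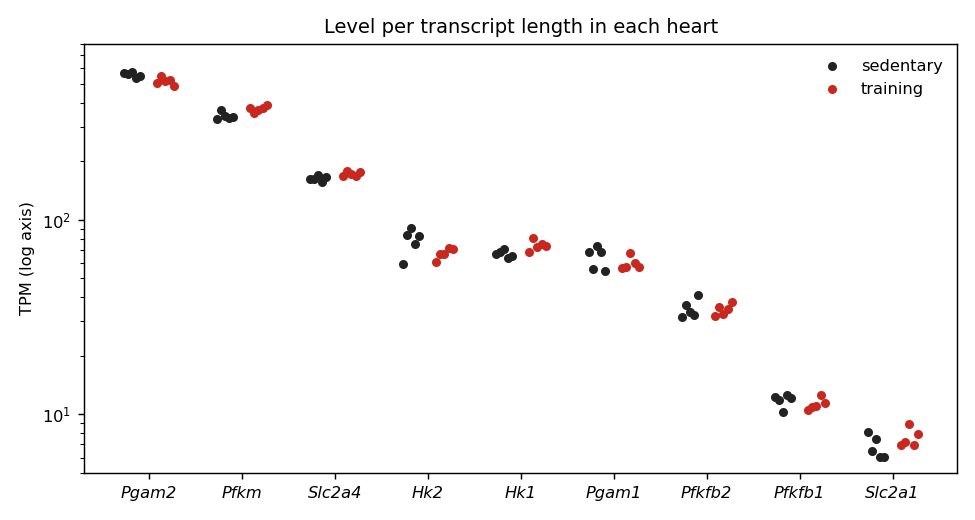
TPM of each gene (vertical log axis) in every sedentary (black) and training (red) heart, ordered by mean level. Pgam2 and Pfkm are highest and Slc2a1 lowest, and the Hk2 and Hk1 points interleave.

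After each group's mean was removed, Slc2a1 moved against most of the others across the 10 hearts. Its log2 CPM correlated with that of 7 of the other 8 genes at Pearson's r between −0.79 (Pfkfb2) and −0.44 (Pgam2), and with Pgam1 at 0.38. Hk1 and Pgam2 had the highest positive value, 0.77. These are descriptions over 10 hearts, whose values share a library and its scaling.

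By the same measure without removing the means, the genes most like Hk2 among 10240 were Ralgapa2 (r = 0.94), Pstpip2 (r = 0.93) and Tigar (r = 0.92), which encodes a fructose-2,6-bisphosphatase. Those most like Pgam2 were Ndufb7 (r = 0.98) and Uqcrq (r = 0.97), subunits of respiratory complexes I and III, and Bbln (r = 0.96). These last genes were themselves called lower, at log2 fold changes of −0.20, −0.23 and −0.21. Of the genes most like Hk2, Pstpip2 was called lower, at −0.18 (edgeR, adjusted p = 0.0909), and Ralgapa2 and Tigar were not called. The difference between the groups enters all of these r, and a shared regulation was not tested.

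Other genes of glucose use were read from 7 lists with 71 genes, drawn up with earlier results of these data known. Of these, 67 were tested, 8 were lower and 1 was higher by the same edgeR test. The shares were 11.9% lower and 1.49% higher, against 4.26% and 2.75% of all tested genes. The median log2 fold change of these 67 was −0.031. Among the other transporters 0 of 6 were called, with log2 fold changes from −0.026 for Slc2a12 to 0.22 for Slc2a13, and Slc2a8 had the highest level at 8.52 TPM. Among hexokinase relatives and partners, Hk3 had a log2 fold change of 0.096 and did not pass, and G6pc3, a glucose 6-phosphatase, was at 28.7 TPM and was not called.

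Of 10 tested genes of the preparatory steps 1 was lower (10%, against 4.26% of all tested genes). It was Fbp2, the muscle fructose bisphosphatase, with a log2 fold change of −0.44 (edgeR, adjusted p = 0.0231). Aldoa had the highest level of these, at 1985 TPM. Of 9 genes of the payoff steps 0 were called, although 8 lay below 0, from −0.13 for Pkm to 0.00019 for Eno3, and Gapdh had the highest level at 1745 TPM. The counts of Pgk1, Eno1, Gapdh and Pkm are uncertain. RSEM assigned them 2.65, 1.76, 1.54 and 1.23 times the counted reads.

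Of 15 glycogen genes 4 were lower (26.7%, against 4.26% of all tested genes) and 0 higher. Ppp1r3c, which targets a phosphatase to glycogen, was at −0.34 (edgeR, adjusted p = 0.0169), and Pgm1, which converts glucose 1-phosphate and glucose 6-phosphate, at −0.17 (edgeR, adjusted p = 0.0402). Ugp2, which makes UDP-glucose, was at −0.28 (edgeR, adjusted p = 0.0583), and the glycogen synthase Gys1 at −0.13 (edgeR, adjusted p = 0.0757). Pygm, the muscle glycogen phosphorylase, had the highest level, 480 TPM, and was not called, and Phkg1 was at 0.23 without passing.

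Of 12 genes of GLUT4 trafficking 1 was higher (8.33%, against 2.75% of all tested genes), the sorting receptor Sort1, at 0.30 (edgeR, adjusted p = 0.0938). Rab10, the highest at 49.6 TPM, was at −0.057. Of 12 regulators 2 were lower (16.7%, against 4.26% of all tested genes). They were the glucose-sensing factors Mlxipl, at −0.24 (edgeR, adjusted p = 0.0356), and Mlxip, at −0.23 (edgeR, adjusted p = 0.0522). Txnip, highest of the regulators at 385 TPM, was not called, nor were Arrdc4 at 0.18 and Ppargc1a at −0.29. Sort1 lost its call without 7 of the 10 hearts in turn, Gys1 without 7, Ugp2 without 5, Mlxip without 2 and Pgm1 without 1, while Fbp2, Ppp1r3c and Mlxipl were called in all 10.

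**Figure D4:**
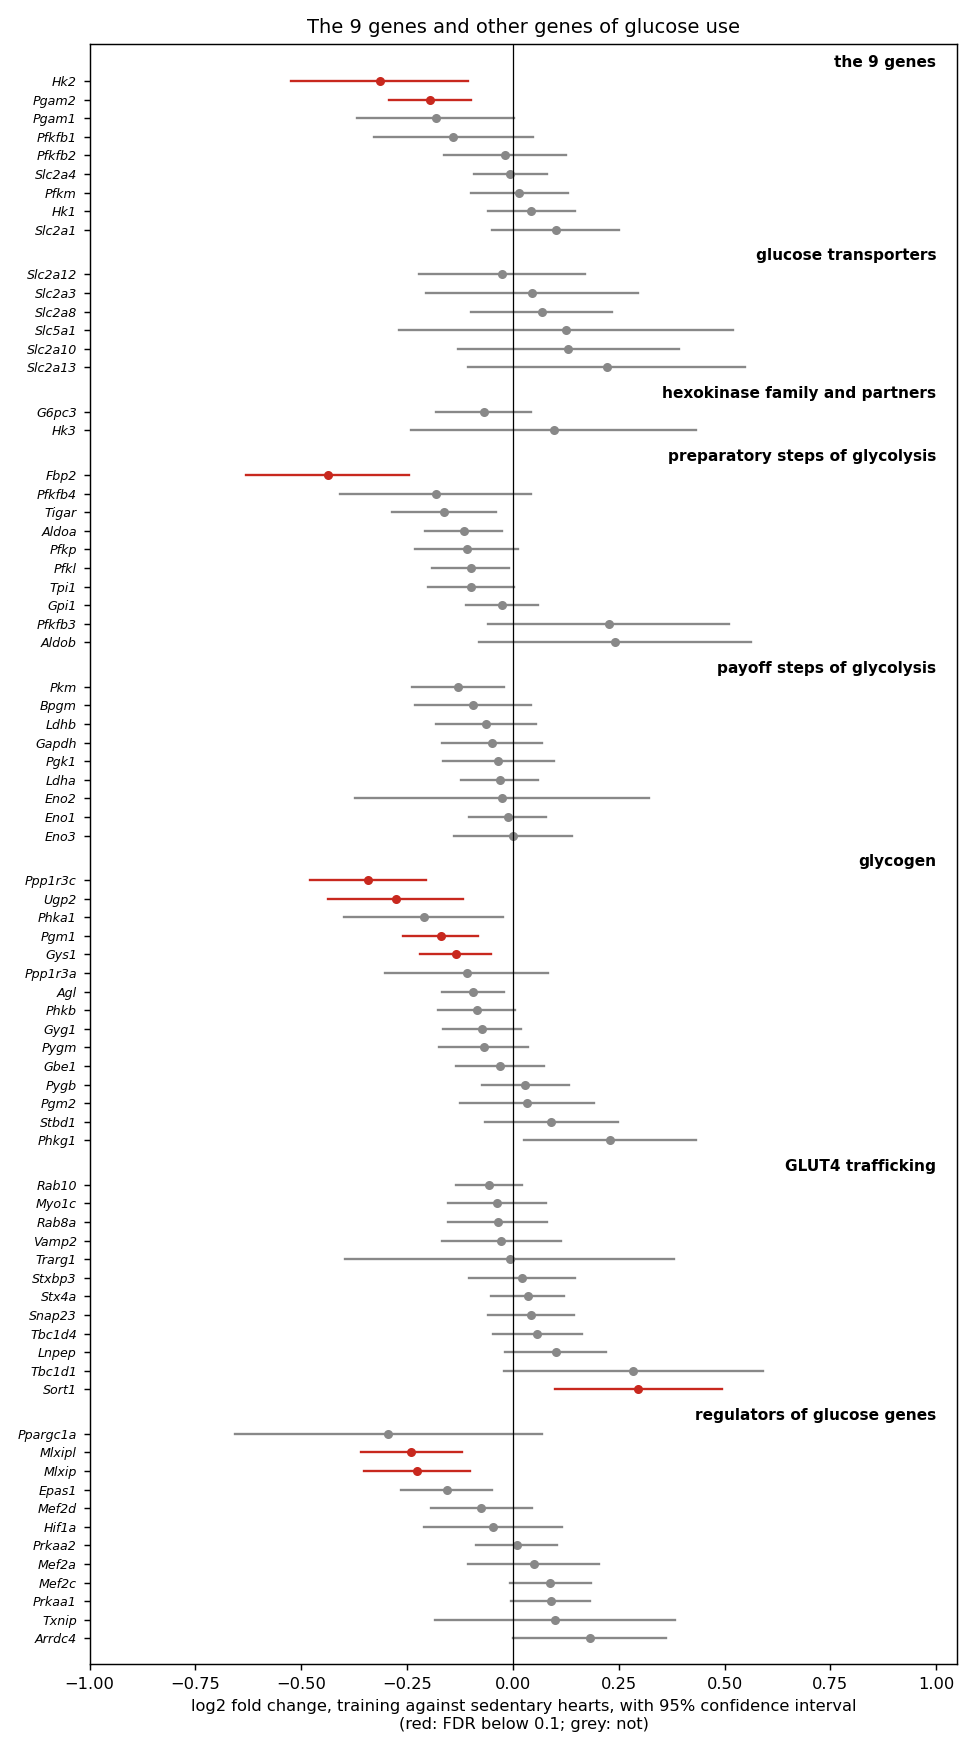
log2 fold change after training, sedentary hearts being the base (horizontal axis), with 95% confidence intervals, for the 9 genes and the tested genes of 7 lists with 1 gene left out, red where the FDR was below 0.1. Fbp2 lies furthest below 0 of the genes shown at −0.44, Hk2 and Pgam2 are the red points of the 9, and Sort1 is the only red point above 0.

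Markers of the atria moved with the groups. The 8 atrial markers summed to between 5152 and 7736 CPM in training hearts and between 2856 and 6946 CPM in sedentary hearts, all 8 had log2 fold changes above 0, 2 were called higher and none was at 0 in all hearts. The atrial score, the mean centred log2 CPM of these markers, was 0.31 in sedentary heart 1, where Hk2 was low, and −0.89, −0.17, −0.019 and −0.70 in sedentary hearts 2 to 5, while training hearts lay between 0.042 and 0.60. With this score as a covariate 0 of the 9 genes passed, and 86 genes passed in all. Hk2 moved towards 0 and Pgam1 away from it, to −0.34 (edgeR, adjusted p = 0.184), while Hk1 was at 0.12 (edgeR, adjusted p = 0.429), Pfkm at 0.10, Pfkfb2 at 0.14 and Pfkfb1 at −0.11. Of the 8 called list genes named above, 0 passed in that fit, although most log2 fold changes were about as large as without the score. They were −0.44 for Fbp2, −0.34 for Ppp1r3c, −0.26 for Ugp2, −0.25 for Mlxip, −0.19 for Mlxipl, −0.12 for Pgm1 and −0.12 for Gys1, and 0.047 for Sort1. The score and the groups go together in these hearts, and atrial tissue and training cannot be fully told apart.

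**Figure D5:**
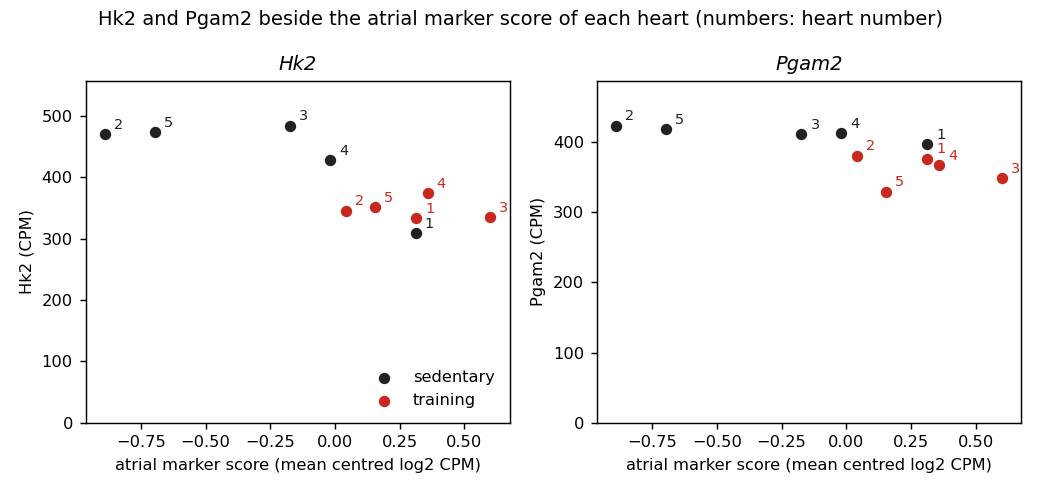
CPM of Hk2 and Pgam2 (vertical axes, from 0) against the atrial marker score (horizontal axes, mean centred log2 CPM) in each heart, sedentary in black and training in red, numbered by heart. Sedentary heart 1, with a score of 0.31, has 309 CPM of Hk2, next to the training hearts.

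Cardiomyocyte markers summed to between 60490 and 63643 CPM in training hearts and between 64026 and 72338 CPM in sedentary hearts. These sums did not overlap, and 1 of 8 was called, lower. On their mean centred log2 CPM, where each gene weighs alike, the groups did overlap. Sedentary heart 1 was at −0.027, below training heart 1 at −0.017 and training heart 2 at −0.021. Of 12 core clock genes 8 were called, 3 lower and 5 higher, where 7.01% of all tested genes were called in either direction. Erythroid markers summed to between 39.2 and 98.9 CPM against 60.4 to 142 CPM, skeletal muscle markers to between 5.80 and 8.49 CPM against 5.78 to 8.67 CPM, and adipocyte markers to between 20.7 and 178 CPM against 18.1 to 139 CPM. Of fibroblast markers 2 of 7 were called higher, of mural markers 1 of 6 lower and 1 higher, of endothelial markers 1 of 7 lower and of macrophage markers 0 of 8. The part of these in the results for the 9 genes was not tested.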

How the data were processed

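RNA from whole hearts was sequenced from directional libraries, 1 library per mouse, and groups were taken from the labels. As deposited, the counts are unnormalized numbers of uniquely mapped reads on each gene from STAR 2.7.10a against GRCm39, and the authors also deposited expected counts and TPM per gene from RSEM 1.3.3, whose strand setting is not stated and read as stranded from the values. Reverse-strand counts, between 94.9% and 95.6% of stranded counts, were used. Lines naming no gene were left out, among them multimapping reads (from 17.9% to 19.2%) and reads outside genes (from 4.15% to 4.89%). Symbols came from GENCODE M39.

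Counts were fitted with edgeR 4.0.16 under R 4.3.3 (filterByExpr, TMM, quasi-likelihood F test, Benjamini-Hochberg over 15454 genes, FDR below 0.1). CPM use TMM-corrected library sizes. Expected counts were rounded before testing. Ratios of counts were compared by exact permutation (scipy 1.17.1), and genomic matches found with blastn 2.17.0. The edgeR fit and the permutation test were tested on simulated data, and the other steps were not. The edgeR p-values set the difference between groups against the spread between hearts, estimated with information shared across genes. Those of the ratios come from reassigning whole hearts.

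The 9 genes and all lists were chosen with earlier results of these data known. Every called list gene was named except 1 that is not reported here, with the highest by TPM and the extreme log2 fold changes among those of at least 1 CPM, and for each called member the 3 genes most correlated with it, among those of at least 5 CPM. A second MEF2 motif was searched after the first 3 motifs had been searched and the windows seen, and both results are given. DESeq2 1.42.0 and the other alternatives are described in the closing section. Data on voluntary running were not analysed here.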

Additional observations from a re-analysis of the deposited data

Results flagged for a closer look

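The log2 ratio of Slc2a4 to Slc2a1 counts was 4.21 in training heart 3, while the other 4 training hearts lay between 4.46 and 4.56. The gap to the nearest heart was 0.724 of the range of the group, above Dixon's 95% critical value. Of 26 groups of values looked at this way this was the only one, and chance alone gives about 1 in 20. Training heart 3 also had the highest Slc2a1 level of its group, 20.3 CPM, and the lowest Slc2a4 level, 377 CPM. It had the highest atrial score of all 10 hearts, 0.60, the highest fibroblast marker score, 0.34, and the lowest sum of cardiomyocyte markers, 60490 CPM, and their part in this ratio was not tested. The low Hk2 value of sedentary heart 1 did not reach the critical value, with a gap of 0.679 of the range.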

How the results depend on the processing

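Of the alternatives, the atrial score as a covariate moved the counts most: 0 of the 9 genes, 86 of all genes and 1 list gene were called, against 2, 1084 and 9. An FDR below 0.05 gave 1, 505 and 5. With library totals alone and with RSEM expected counts 1 of the 9 was called, as Hk2 missed the threshold at log2 fold changes of −0.26 (edgeR, adjusted p = 0.115) and −0.32 (edgeR, adjusted p = 0.108), the second as large as in the counts used. Library totals alone also turned the balance over all genes, to 339 lower and 1029 higher, against 659 and 425 with TMM. The shares of all tested genes that were lower or higher thus depend on the scaling. Without each heart in turn the counts lay between 1 and 2 of the 9 genes, between 512 and 1490 of all genes (512 without training heart 4 or sedentary heart 3, 540 without training heart 3, 611 without sedentary heart 2, 671 without sedentary heart 4) and between 4 and 15 list genes (4 without sedentary heart 3, 5 without training heart 3, 15 without sedentary heart 1). The difference in the log2 ratio of Hk2 to Hk1 lay between −0.43 and −0.30, and passed only without sedentary heart 1 (exact permutation test, adjusted p = 0.0317).

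Genes with changes near 0 turned sign: Slc2a4 was at 0.048 and Pfkfb2 at 0.037 with library totals alone, which moved the median of all genes by 0.053, and Slc2a1 was at −0.018, Slc2a4 at 0.052 and Pfkfb2 at 0.14 with the atrial score. Without single hearts Slc2a4 lay between −0.027 and 0.011, Pfkm between −0.017 and 0.046, Pfkfb2 between −0.062 and 0.035 and the ratio of Pgam2 to Pgam1 between −0.065 and 0.040. The cause was not tested.

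With the mouse number as a replicate block, 3 of the 9 genes, 1137 of all genes and 12 list genes were called, Pgam1 being added (log2 fold change −0.18, edgeR adjusted p = 0.0898). Residuals of hearts with the same number correlated between −0.097 and 0.16, so the numbers were not taken as pairs.

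The other alternatives were the Wald test of DESeq2, its size factors in the edgeR fit, no filter on low counts, at least 10 counts in every library, counts of both strands, counts thinned to the smallest library, no genes of mitochondrial DNA, and 0.5 counts added for the ratios. Under these Hk2 and Pgam2 remained lower and called. Slc2a1, Pfkfb1 and Pgam1 rest on the fewest counts. In thinned libraries their log2 fold changes were 0.10, −0.12 and −0.19.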
